A study of Mus musculus with 6 samples.

Results

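The genes of glycolysis and of the response to low oxygen were compared between mouse osteosarcoma lines and differentiated cultures of the stromal line KUSA4b10. They were given as 36 names: glucose and lactate transporters, glycolytic enzymes, pyruvate dehydrogenase kinases, alpha subunits of hypoxia-inducible factor (HIF), prolyl hydroxylases and other genes known as hypoxia-induced. Each was matched by symbol, taking its brightest probe set. A total of 34 were matched, out of 21335 gene symbols in all, and Gpi1 and Eno1 were not analysed here. Glycolysis turns glucose into pyruvate and lactate, and several of its steps are carried out by alternative isozymes encoded by separate genes. Many of the same genes are switched on in low oxygen by HIF, a transcription factor whose alpha subunits are marked for destruction by prolyl hydroxylases when oxygen is present. HIF target genes also include the prolyl hydroxylase Egln3, lactate transport and pyruvate dehydrogenase kinases, which hold pyruvate back from the mitochondria. Tumour cells are known for high glycolysis even when oxygen is present, and cultured osteoblasts also rely on it.

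Expression was measured on 6 Affymetrix Mouse Gene ST arrays, 1 per sample, as log2 values of 20160 distinct probe sets (features). There were 3 osteosarcoma lines, OS_493H, OS_494H and OS_716H, each grown from a primary tumour of an Osx-Cre+ mouse with fl/fl alleles of both Rb and p53. The Osterix promoter directs Cre to cells of the osteoblast lineage, and each line stands for 1 tumour. By their labels they came from the hip (female, age 188), the hip (male, age 190) and the tibia (female, age 226), with no age unit. The comparison group was 3 cultures of KUSA4b10, a mouse stromal line, kept 21 days past confluence in medium with ascorbate at 50 ug/ml; all samples carry the strain label C57Bl6, and both groups were grown in RPMI with fetal calf serum (10%). The cultures are numbered 1 to 3 as in their titles, and values are listed below in the order of cultures 1, 2 and 3 and of lines OS_493H, OS_494H and OS_716H. They are 1 cell line; their titles also carry Ex1 to Ex3 with no word on what this marks, and no other label says that they were grown separately, so the p-values may in part rest on technical spread. The labels name no oxygen level and no low-oxygen treatment, and they give neither ascorbate nor a differentiation day for the tumour lines, so a difference of origin and one of growth or maturation cannot be told apart. The number of arrays, 3 a group, limits the precision of every value.

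Cultures 1 and 3 were nearly alike over all features (Pearson's r = 0.998, against 0.994 and 0.993 with culture 2, across genes, which are not independent replicates). Rb1, targeted in the model, was lower in every line than in every culture (log2 difference -1.05, limma adjusted p = 0.00431), but its probe set averages the transcript and is no measure of the deleted part. The array labelled OS_716H, from a female, had the Y-linked Eif2s3y at 10.11 and Xist at 5.50, against 4.08 and 12.62 in the female line OS_493H, so it went against its label. Leaving it out ended the calls of Pfkm, Pdk1 and Hif1a among the genes below and of no other called gene of the set. Over all features, 13.3% were called higher and 11.6% lower in the lines (limma adjusted p under 0.05). Of 10 measured osteoblast and osteocyte markers, 5 were lower in the lines and none higher. The bone sialoprotein gene Ibsp stood at 13.23 in the cultures and 7.07 in the lines, while the collagen gene Col1a1 differed by -0.07. Of 14 adipocyte markers, 13 were lower (list mean 10.44 to 11.09 in the cultures, 7.76 to 8.14 in the lines). All 13 measured mitosis genes were higher (list mean 8.37 to 9.54 in the cultures, 11.16 to 11.62 in the lines). Both lists moved with the results below, and their part in them was not tested. In such bulk RNA, fewer cells of a type and less RNA per cell cannot be told apart.

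More genes of the set rose in the osteosarcoma lines than fell. Of the 34 probe sets, 18 were higher, 6 lower and 10 not called, the shared ones of Hk1 and Gapdh among them (limma, Benjamini-Hochberg adjusted p under 0.05 over all features), where 13.3% and 11.6% of all features were called in those directions. The genes that rose were Slc2a1, Slc2a3, Pfkl, Pfkm, Pfkp, Pfkfb4, Aldoc, Tpi1, Pgk1, Pgam1, Pkm, Ldha, Slc16a3, Pdk1, Pdk3, Hif1a, Egln3 and Higd1a. The genes that fell were Hk2, Pfkfb3, Eno2, Ldhb, Pdk2 and Ndrg1. Of the 32 genes with a probe set of their own, the groups did not overlap for 25, against 41.9% of all features. The median log2 difference over the 34 was 0.49 against -0.02 over all features. The 34 were brighter than the features at large (array means 10.15 to 10.54 against 8.17 to 8.21). These shares were not matched for brightness, and its part was not tested. Most called changes were under 2-fold: 5 of the genes that rose and 2 of those that fell changed at least 2-fold. The counts over all features at that minimum are given in the last section. The counts rested on few arrays. Without culture 1 there were 8 higher and 3 lower, without culture 2 there were 16 and 3, and without culture 3 there were 7 and 4. Without OS_716H there were 15 and 6. The counts over all features also changed on leaving out 1 array (last section), so these changes are not shown to be particular to the set. A total of 10 genes kept their call on leaving out any 1 array, namely Pfkl, Tpi1, Pgk1, Pkm, Slc16a3, Pdk3 and Egln3 among the higher and Hk2, Eno2 and Pdk2 among the lower.

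**Figure D1:**
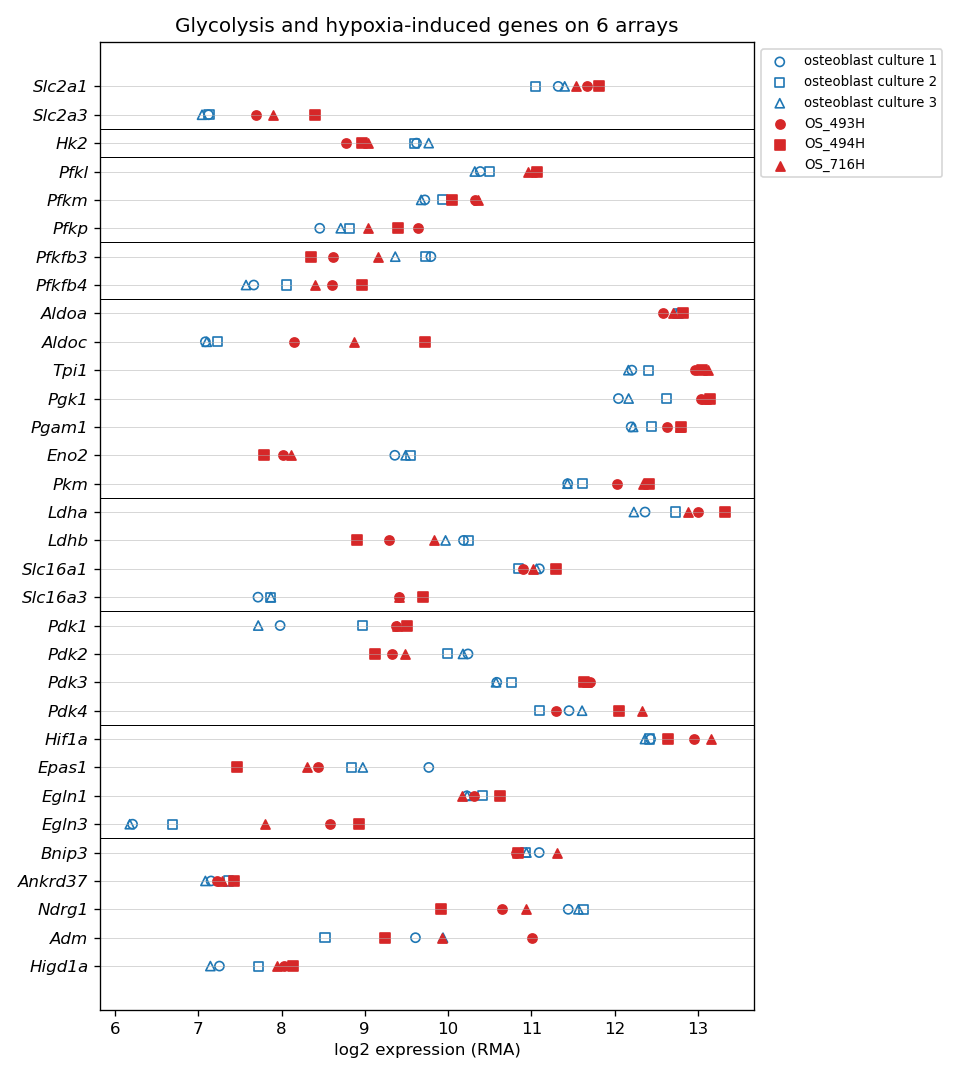
Log2 expression of the 32 genes with a probe set of their own on each of the 6 arrays, in role order from glucose transport (top) to other hypoxia-induced genes (bottom), with lines between the roles. Open blue symbols are the 3 KUSA4b10 cultures (osteoblast cultures in the legend) and filled red symbols the 3 osteosarcoma lines. The colours do not overlap for 25 of the 32 genes, and positions of different genes are not comparable.

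**Figure D2:**
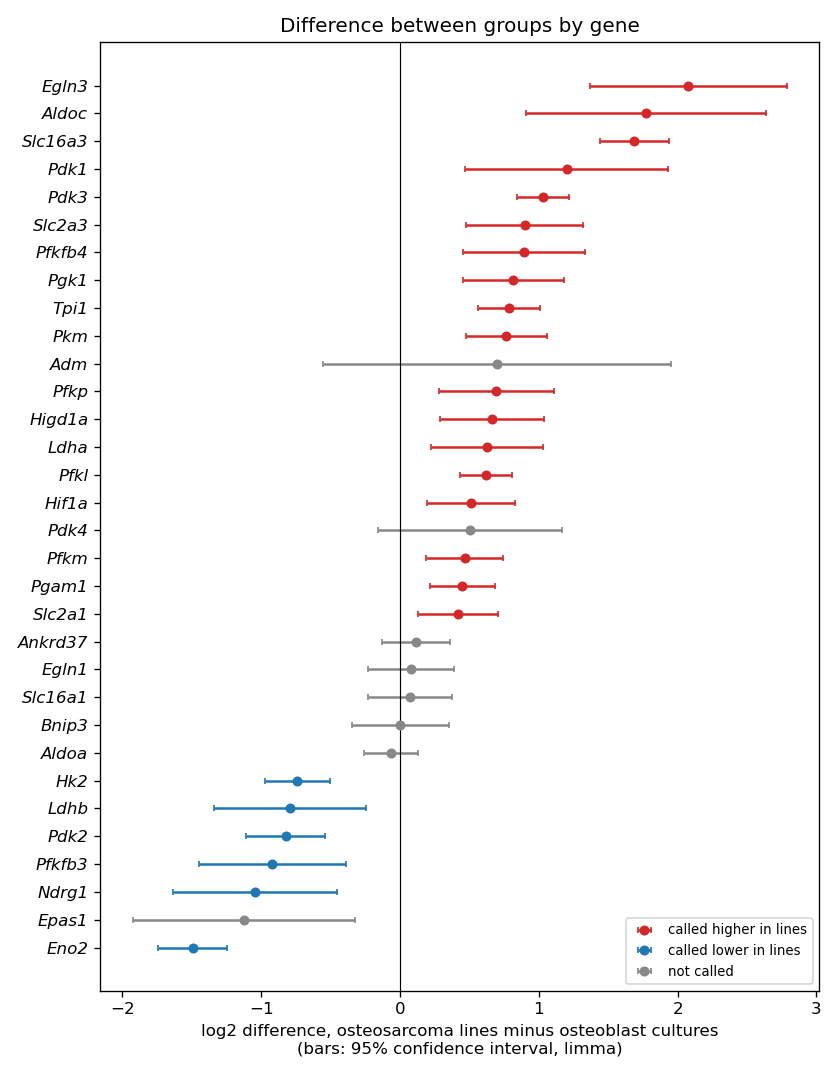
Log2 difference of means, 3 osteosarcoma lines minus 3 KUSA4b10 cultures (osteoblast cultures on the axis), for the same 32 genes. Genes are ordered by the size of the difference, with 95% confidence intervals from limma (not adjusted for multiple testing). Red marks the 18 genes called higher, blue the 6 called lower and grey the 8 not called; Egln3 stands at the top and Eno2 at the bottom.

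Promoters were examined for the letters of the HIF core motif, ACGTG or GCGTG, on both strands (CACGT or CACGC as read on the printed strand; the forms overlap where both strands match, as in CACGTG). The window was the 250 bases before each start in the RefSeq promoter table (GRCm38.p6), in which 33 of the 36 genes had an entry and some had several starts. Among genes with a probe set of their own, the motif was in 20 of 24 promoters of the genes that rose (83.3%), in 5 of 7 of those that fell (71.4%) and in 8 of 9 of those not called (88.9%). With Hk1, Gapdh, Gpi1 and Eno1, which these sets leave out, it was in 38 of 47 (80.9%). Over the whole table it was in 12679 of 32851 promoters (38.6%), and over protein-coding genes in 9358 of 21263 (44%). The share was thus above the table's in all 3 sets, whichever way the genes went. The motif holds a CG pair, so the share moves with base composition, whose part was not tested. The 4 genes whose call held under every alternative tried are shown 5′ to 3′ on the gene's own strand, with motif letters in capitals: Slc16a3 (chr11:120948817-120949066, plus strand), Egln3 (chr12:54203875-54204124, minus strand), Pdk3 (chrX:93832151-93832400, minus strand) and Eno2 (chr6:124769674-124769923, minus strand).
Slc16a3: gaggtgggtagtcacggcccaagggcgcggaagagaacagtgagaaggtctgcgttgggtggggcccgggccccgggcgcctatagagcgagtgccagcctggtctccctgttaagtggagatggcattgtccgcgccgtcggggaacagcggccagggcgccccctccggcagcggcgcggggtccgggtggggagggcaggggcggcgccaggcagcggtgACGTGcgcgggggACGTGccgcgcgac
Egln3: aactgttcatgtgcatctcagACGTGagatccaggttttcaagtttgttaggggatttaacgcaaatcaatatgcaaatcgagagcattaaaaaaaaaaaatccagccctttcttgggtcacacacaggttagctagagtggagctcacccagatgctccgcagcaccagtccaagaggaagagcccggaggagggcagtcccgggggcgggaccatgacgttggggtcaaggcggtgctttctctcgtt
Pdk3: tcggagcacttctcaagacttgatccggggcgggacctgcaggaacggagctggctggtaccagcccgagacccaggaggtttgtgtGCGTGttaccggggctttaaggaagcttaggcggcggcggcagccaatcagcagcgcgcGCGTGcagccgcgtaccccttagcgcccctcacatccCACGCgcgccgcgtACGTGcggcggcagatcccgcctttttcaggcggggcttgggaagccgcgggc
Eno2: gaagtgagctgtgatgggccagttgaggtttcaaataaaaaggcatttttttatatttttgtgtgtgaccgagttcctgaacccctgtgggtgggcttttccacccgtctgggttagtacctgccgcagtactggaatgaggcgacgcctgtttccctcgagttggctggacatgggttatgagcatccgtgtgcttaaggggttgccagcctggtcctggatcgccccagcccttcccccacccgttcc
The first 3 rose and the last fell. Slc16a3 has 2 copies of ACGTG that begin 27 and 14 bases before the start. Egln3 has 1, which begins 229 bases before it. Pdk3 has 4 matches and Eno2 has none in this window. The start used for Slc16a3 lies 583 bases from the annotated start of its gene, a distance that is 0 for Egln3, Pdk3 and Eno2. A match is a run of letters, not a shown binding site.

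Both glucose transporters rose. Slc2a3 encodes GLUT3, a high-affinity transporter, and stood at 7.12, 7.13 and 7.04 in the cultures against 7.69, 8.40 and 7.90 in the lines. The cultures lay close together and all lines above them, a 1.86-fold higher level (log2 difference 0.90 ± 0.18 SE, limma adjusted p = 0.012), with OS_494H highest. The call was lost without culture 3 (adjusted p = 0.0525). Slc2a1 encodes GLUT1, the basal transporter of most cells, and stood at 11.32, 11.05 and 11.40 in the cultures against 11.67, 11.81 and 11.54 in the lines. All lines were above all cultures, but the 1.34-fold difference was barely past the threshold (adjusted p = 0.0482). It was kept only without OS_716H; leaving out any other array gave 0.0677 to 0.11, and adjustment over all probe sets 0.058. Within each array the log2 value of Slc2a3 minus that of Slc2a1 was 0.48 higher in the lines on average, with overlapping groups (exact permutation p = 0.2, two-sided). The exact permutation test cannot go below p = 0.1 with 3 samples against 3.

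Hexokinase traps glucose in the cell as glucose phosphate. Hk2, the inducible hexokinase of muscle, fat and many tumours and a well-known HIF target, fell in the lines. It was 9.62, 9.60 and 9.77 in the cultures against 8.77, 8.96 and 9.04 in the lines. Every line lay below every culture, a 1.67-fold lower level (log2 difference -0.74 ± 0.10 SE, limma adjusted p = 0.00298), and the call held on leaving out any 1 array. The adipocyte markers, of which 13 of 14 were lower, moved the same way, and their part was not tested. For Hk1, the widely expressed hexokinase, the brightest probe set is annotated to Gm6133 and the ribosomal protein gene Rpl17 as well, so its difference of -0.15 (adjusted p = 0.151) is not read as Hk1. The probe set annotated to Hk1 alone and to its RefSeq transcripts, picked after the values were seen, stood at 10.48, 10.70 and 10.42 in the cultures against 10.43, 10.45 and 10.32 in the lines. Its groups overlapped, and its difference was -0.13 (95% confidence interval -0.37 to 0.11).

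Phosphofructokinase, the main control point of glycolysis, is built from liver, muscle and platelet type subunits, and all 3 rose. Pfkl was 10.39, 10.50 and 10.32 in the cultures against 11.04, 11.06 and 10.96 in the lines. Its groups were tight and far apart, with a 1.54-fold rise (log2 difference 0.62 ± 0.08 SE, limma adjusted p = 0.00254), kept on leaving out any 1 array. Pfkp was 8.46, 8.81 and 8.71 in the cultures against 9.64, 9.40 and 9.03 in the lines. OS_716H was the lowest line and still above every culture (1.62-fold, adjusted p = 0.028). Pfkm was 9.72, 9.93 and 9.68 in the cultures against 10.32, 10.04 and 10.36 in the lines. OS_494H lay only just above culture 2 (1.38-fold, adjusted p = 0.0286). Without culture 1, culture 3 or OS_493H the calls of Pfkp and Pfkm were lost (adjusted p up to 0.104 and 0.108); that of Pfkp was also lost without OS_494H (0.0563) and that of Pfkm without OS_716H (0.0687). The within-array difference of Pfkp and Pfkl shifted by 0.07 and that of Pfkm and Pfkl by -0.15. Both had overlapping groups (exact permutation p = 0.7 and 0.3). With 3 samples against 3 the exact permutation test cannot go below p = 0.1, so it could not show an unequal rise of the subunits.

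Pfkfb3 and Pfkfb4 encode bifunctional enzymes that make and degrade the sugar bisphosphate which activates phosphofructokinase, and both are known as hypoxia-induced. They went in opposite directions. Pfkfb4 was 7.67, 8.06 and 7.57 in the cultures against 8.61, 8.96 and 8.40 in the lines. All lines were above all cultures (1.85-fold, log2 difference 0.89 ± 0.18 SE, limma adjusted p = 0.0145). Pfkfb3 was 9.79, 9.73 and 9.37 in the cultures against 8.62, 8.35 and 9.16 in the lines. All lines were below all cultures, OS_494H most and OS_716H least (1.89-fold lower, log2 difference -0.92 ± 0.22 SE, adjusted p = 0.0252). OS_494H was therefore at the far end for both genes. The call of Pfkfb4 was lost without culture 1 or 3 (adjusted p = 0.0641 and 0.0603), and that of Pfkfb3 without culture 1, culture 2 or OS_493H (0.0975, 0.0803 and 0.0757).

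In lower glycolysis 5 of 7 genes with their own probe set rose and 1 fell, against 13.3% and 11.6% of all features. Aldolase splits the hexose, and of its isozymes Aldoc rose while Aldoa did not pass. The brain-type gene Aldoc was 7.08, 7.23 and 7.10 in the cultures against 8.15, 9.72 and 8.86 in the lines. The cultures sat together, and the lines spread over more than a log2 unit above them, in the order OS_494H, OS_716H and OS_493H (3.42-fold, log2 difference 1.77 ± 0.36 SE, limma adjusted p = 0.0138). Aldoa, the muscle-type and most widely expressed form, was 12.78, 12.77 and 12.76 in the cultures against 12.59, 12.82 and 12.70 in the lines, with overlapping groups and a difference of -0.07 (95% confidence interval -0.26 to 0.13). Aldoc lost its call without culture 1 or 3 (adjusted p = 0.0579 and 0.0554).

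The next steps rose together by modest amounts. Tpi1, which interconverts the triose phosphates, was 12.21, 12.41 and 12.17 in the cultures against 12.96, 13.05 and 13.13 in the lines, a 1.72-fold rise (limma adjusted p = 0.00214). Pgk1, the first ATP-forming enzyme of the pathway, was 12.05, 12.62 and 12.17 in the cultures against 13.04, 13.14 and 13.10 in the lines, a 1.76-fold rise (adjusted p = 0.00989). In both, culture 2 was the highest culture and still below every line. The pyruvate kinase gene Pkm was 11.44, 11.62 and 11.43 in the cultures against 12.02, 12.42 and 12.34 in the lines, a 1.7-fold rise (adjusted p = 0.00581), with OS_493H the lowest line. These 3 calls held on leaving out any 1 array. The phosphoglycerate mutase gene Pgam1 was 12.20, 12.45 and 12.22 in the cultures against 12.62, 12.80 and 12.79 in the lines, a 1.37-fold rise (adjusted p = 0.0176) that was lost without culture 1 (0.077) or culture 3 (0.0752). Pgk1, Pgam1 and Pkm each have further probe sets with the same direction and near-equal differences. For Pgk1, 1 of them repeats the values of the chosen probe set, and those of Pgam1 repeat each other, so these are not separate measurements. The chosen Pkm probe set is listed without a RefSeq transcript, and the one listed with it gave 0.87. Signal from near-identical copies is not separated. Gapdh was measured only by 25 probe sets shared with other symbols, whose differences of 0.13 to 0.18 are not read as Gapdh alone.

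Eno2, the neuron-type enolase and a known HIF target, fell most of all the genes. It was 9.36, 9.55 and 9.49 in the cultures against 8.01, 7.79 and 8.11 in the lines. The groups were more than a log2 unit apart, 2.82-fold lower in the lines (log2 difference -1.50 ± 0.10 SE, limma adjusted p = 5.67e-04), and the call held under every alternative tried. Eno3, the muscle-type enolase and no member of the set, was 9.65, 10.50 and 9.64 in the cultures against 10.54, 11.69 and 11.26 in the lines, a 2.35-fold rise (adjusted p = 0.045). All lines were above all cultures, but the call was lost without culture 1 (0.151), culture 3 (0.148), OS_494H (0.0853) or OS_716H (0.101). Of 7 muscle markers, Acta1 was higher (0.34, limma adjusted p = 0.0143) and 6 did not pass, so 14.3% were called, against 24.8% of all features. The call of Acta1 was lost without culture 1 (0.0548) or culture 3 (0.0662). The list mean was 6.93 to 7.07 in the cultures and 6.99 to 7.02 in the lines.

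Among the lactate genes Ldha and Slc16a3 rose and Ldhb fell. Slc16a3 encodes MCT4, the transporter that exports lactate from glycolytic cells, and was 7.72, 7.87 and 7.87 in the cultures against 9.41, 9.70 and 9.41 in the lines. Both groups were tight and far apart, a 3.22-fold rise (log2 difference 1.69 ± 0.10 SE, limma adjusted p = 4.22e-04), the smallest adjusted p of the set, and the call held under every alternative tried. Slc16a1, the more general transporter MCT1, was 11.10, 10.85 and 11.06 in the cultures against 10.91, 11.30 and 11.02 in the lines, with overlapping groups and a difference of 0.07 (95% confidence interval -0.23 to 0.37). Ldha, the lactate dehydrogenase subunit of glycolytic tissue, was 12.37, 12.74 and 12.23 in the cultures against 13.00, 13.32 and 12.89 in the lines. OS_716H was the lowest line, just above culture 2 (1.54-fold, adjusted p = 0.0365). Ldhb, the heart-type subunit, was 10.19, 10.25 and 9.97 in the cultures against 9.29, 8.91 and 9.83 in the lines. Here OS_716H was again the line nearest to the cultures, and OS_494H the furthest (1.73-fold lower, adjusted p = 0.0467). The call of Ldha was lost without culture 1, culture 3, OS_493H or OS_494H (adjusted p 0.0691 to 0.126). That of Ldhb was lost without any 1 array except OS_716H (0.0635 to 0.142). It was also lost after median centring (0.0598), quantile normalisation (0.0545) or adjustment over all probe sets (0.0557). A further probe set of Ldhb gave -0.72 (limma adjusted p = 0.0426 over all probe sets).

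The 4 pyruvate dehydrogenase kinases, which switch off the entry of pyruvate into the mitochondrial citric acid cycle, went both ways: Pdk1 and Pdk3 rose, Pdk2 fell and Pdk4 did not pass. Pdk3 was 10.59, 10.76 and 10.58 in the cultures against 11.71, 11.64 and 11.67 in the lines. The lines lay close together, 2.04-fold above the cultures (log2 difference 1.03 ± 0.08 SE, limma adjusted p = 6.81e-04), under every alternative tried. Pdk1, the kinase best known as a HIF target, was 7.98, 8.97 and 7.72 in the cultures against 9.38, 9.50 and 9.39 in the lines. The lines again lay close together, but culture 2 lay about a log2 unit or more above the other cultures, at 2.3-fold in all (log2 difference 1.20 ± 0.30 SE, adjusted p = 0.0305). Without culture 2 the adjusted p was 0.00137, and without any other array the call was lost (0.0615 to 0.112). Pdk2, the most widely expressed family member, was 10.24, 9.99 and 10.18 in the cultures against 9.32, 9.12 and 9.49 in the lines. It fell 1.77-fold (adjusted p = 0.00401), on leaving out any 1 array too. Pdk4, the family member induced by fasting and fatty acids, was 11.45, 11.10 and 11.61 in the cultures against 11.29, 12.06 and 12.33 in the lines. Its groups overlapped through OS_493H, and it did not pass (difference 0.51, adjusted p = 0.248), although it did without OS_493H (0.81, 0.031).

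Of the HIF alpha subunits, Hif1a rose and Epas1 did not pass. Hif1a was 12.43, 12.42 and 12.37 in the cultures against 12.96, 12.64 and 13.15 in the lines. All lines were above all cultures, a 1.43-fold rise (limma adjusted p = 0.0327) that was lost without any 1 array except OS_494H (0.0547 to 0.111). HIF is regulated mainly through protein stability, which arrays do not measure. Epas1, which encodes the second alpha subunit, was 9.77, 8.84 and 8.98 in the cultures against 8.44, 7.46 and 8.30 in the lines. All lines were below all cultures, with OS_494H lowest and culture 1 highest, but the difference of -1.13 ± 0.33 (SE) just missed the threshold (adjusted p = 0.0519). It passed with array weights (adjusted p = 0.0425), an intensity trend (0.0482) or a filter to brighter features (0.04), and over all alternatives the adjusted p was 0.04 to 0.142.

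Egln3, the prolyl hydroxylase most strongly induced by HIF in many cells, rose more than any other gene of the set. It was 6.21, 6.69 and 6.18 in the cultures against 8.58, 8.93 and 7.80 in the lines. The lowest line lay more than a log2 unit above the highest culture, 4.22-fold in all (log2 difference 2.08 ± 0.30 SE, limma adjusted p = 0.00388), and the call held under every alternative tried. Egln1, the main oxygen-sensing hydroxylase, was 10.23, 10.41 and 10.23 in the cultures against 10.31, 10.62 and 10.17 in the lines, with overlapping groups (difference 0.08, 95% confidence interval -0.23 to 0.39). Of 9 further genes of the HIF machinery, 2 were higher, 1 was lower and 6 did not pass, so 33.3% were called, against 24.8% of all features. Arnt, the constant partner of the alpha subunits, rose by 0.42 (adjusted p = 0.00615). Arnt2 (0.36, 0.0495) and the hydroxylase Egln2 (-0.29, 0.0365) were near the threshold: Arnt2 was lost without any 1 array except OS_494H (adjusted p up to 0.143) and Egln2 without any 1 array (up to 0.138).

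The other genes named as hypoxia-induced did not rise together. Ndrg1, a stress- and differentiation-linked gene, was 11.44, 11.63 and 11.57 in the cultures against 10.64, 9.92 and 10.93 in the lines. All lines were below all cultures and OS_494H lowest, 2.07-fold lower (log2 difference -1.05 ± 0.25 SE, limma adjusted p = 0.0236); the call was lost without culture 1, 2 or 3 (0.0697, 0.074 and 0.0816). Higd1a, a small protein of the inner mitochondrial membrane, was 7.25, 7.72 and 7.14 in the cultures against 8.03, 8.13 and 7.94 in the lines, a 1.58-fold rise (adjusted p = 0.0245). A further probe set of Higd1a gave -0.06 (adjusted p = 0.743 over all probe sets). The call was lost with the mean of both (0.128) and without culture 1, culture 3, OS_493H or OS_494H (0.0535 to 0.0963). Bnip3, which marks mitochondria for removal, was 11.10, 10.93 and 10.94 in the cultures against 10.82, 10.84 and 11.31 in the lines, with overlapping groups and no called difference (95% confidence interval of the difference -0.34 to 0.35). Ankrd37 was 7.15, 7.37 and 7.09 in the cultures against 7.23, 7.43 and 7.29 in the lines, with overlapping groups and a difference of 0.11 (95% confidence interval -0.13 to 0.36). All 6 values lay below 7.53, the median of all values on the arrays, as did the cultures' values of Egln3, Aldoc and Slc2a3, and no detection call was used here. Adm, the precursor of the vessel-dilating peptide adrenomedullin, was 9.61, 8.52 and 9.94 in the cultures against 11.00, 9.24 and 9.92 in the lines. It varied by more than a log2 unit within both groups and did not pass (difference 0.70, adjusted p = 0.403).

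Related genes were also set against each other within each array, which asks whether they changed unequally, not which is more abundant. Of 11 pairs, 7 had groups that did not overlap. Over all single features the groups did not overlap for 41.9%, and no such share was taken for other pairs of genes. The count is therefore not shown to be particular to these pairs. With 3 samples against 3 the two-sided exact permutation test cannot go below p = 0.1, which all 7 reached (Benjamini-Hochberg adjusted p = 0.157 over the 11 pairs), so none could pass. Pdk1 minus Pdk2 was -2.26, -1.02 and -2.46 on the culture arrays and 0.05, 0.38 and -0.10 on those of the lines, a shift of 2.02 towards Pdk1 in the lines. Egln3 minus Egln1 shifted by 2.00 and Aldoc minus Aldoa by 1.84. Both shifts came with small differences of the partner gene (0.08 and -0.07). Pfkfb4 minus Pfkfb3 was -2.13, -1.67 and -1.79 on the culture arrays and -0.01, 0.61 and -0.76 on those of the lines, a shift of 1.81. Slc16a3 minus Slc16a1 shifted by 1.62, and the lines stood at -1.49, -1.60 and -1.61. Ldhb minus Ldha was -2.18, -2.49 and -2.26 on the culture arrays and -3.71, -4.42 and -3.06 on those of the lines, a shift of -1.42 towards Ldha. Epas1 minus Hif1a shifted by -1.64, towards Hif1a. Outside these pairs, Hk2 minus the Hk1 probe set chosen after its values were seen shifted by -0.61. Pdk4 minus Pdk3 shifted by -0.53, with overlapping groups (p = 0.3, exact).

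**Figure D3:**
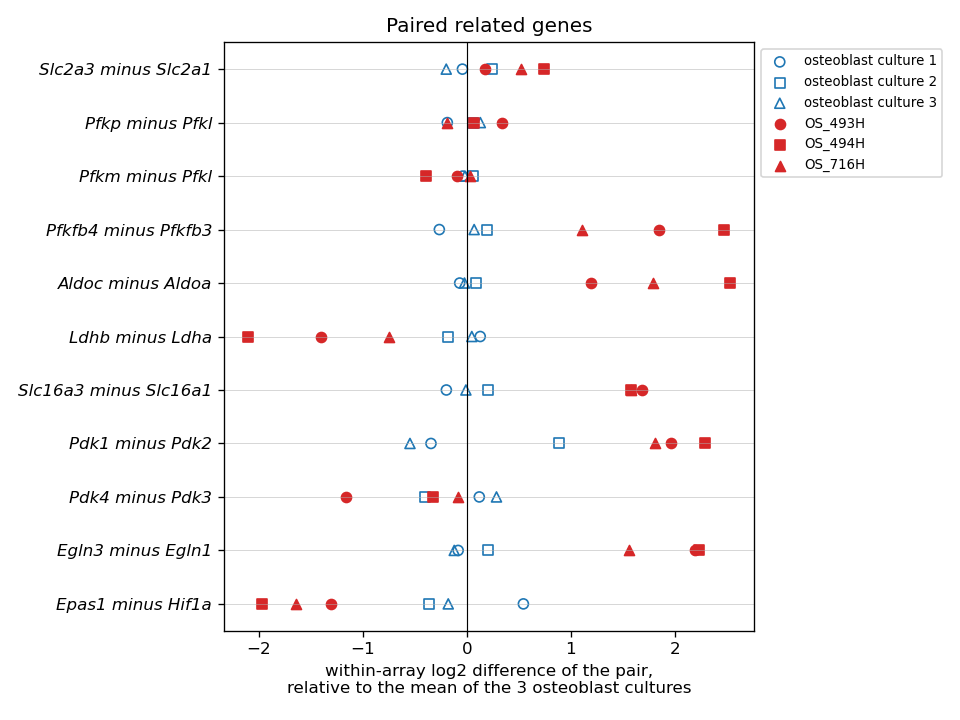
Within-array log2 difference of 11 pairs of related genes on each of the 6 arrays, plotted relative to the mean of the 3 KUSA4b10 cultures. Open blue symbols are these cultures (osteoblast cultures in the legend) and filled red symbols the 3 osteosarcoma lines. The lines lie outside the range of the cultures for 7 pairs, to the right for 5 and to the left for Ldhb minus Ldha and Epas1 minus Hif1a.

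The arrays within a group differed as well. Among the cultures, culture 2 was the highest for 15 of the 18 genes that rose, against 37.2% of all features, and for 3 of the 6 that fell. The share among all features called higher was not taken, so this is not shown to be particular to the set. The mean log2 level over the 18 was 9.68, 9.94 and 9.66 in cultures 1, 2 and 3 and 10.60, 10.82 and 10.59 in OS_493H, OS_494H and OS_716H. Mitosis genes were highest in culture 2 for 13 of 13, with list means of 8.51, 9.54 and 8.37 in the cultures and 11.16, 11.62 and 11.18 in the lines. Both lists thus had culture 2 as the culture nearest to the lines and OS_494H as the highest line, and the part of dividing cells in the rise was not tested. Among the 32 genes, OS_494H was the highest line for 17, OS_716H for 11 and OS_493H for 4. No such share was taken over all features, so this order is not shown to be particular to the set. The median SD of the 32 genes was 0.21 over the lines and 0.14 over the cultures, against 0.13 and 0.09 over all features, without matching for brightness. Aldoc, Adm, Egln3, Pdk4, Epas1 and Ndrg1 had an SD above 0.5 over the lines, while Pdk3, Pgk1, Pfkl, Pdk1, Tpi1, Higd1a and Pgam1 were below 0.1.

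**Figure D4:**
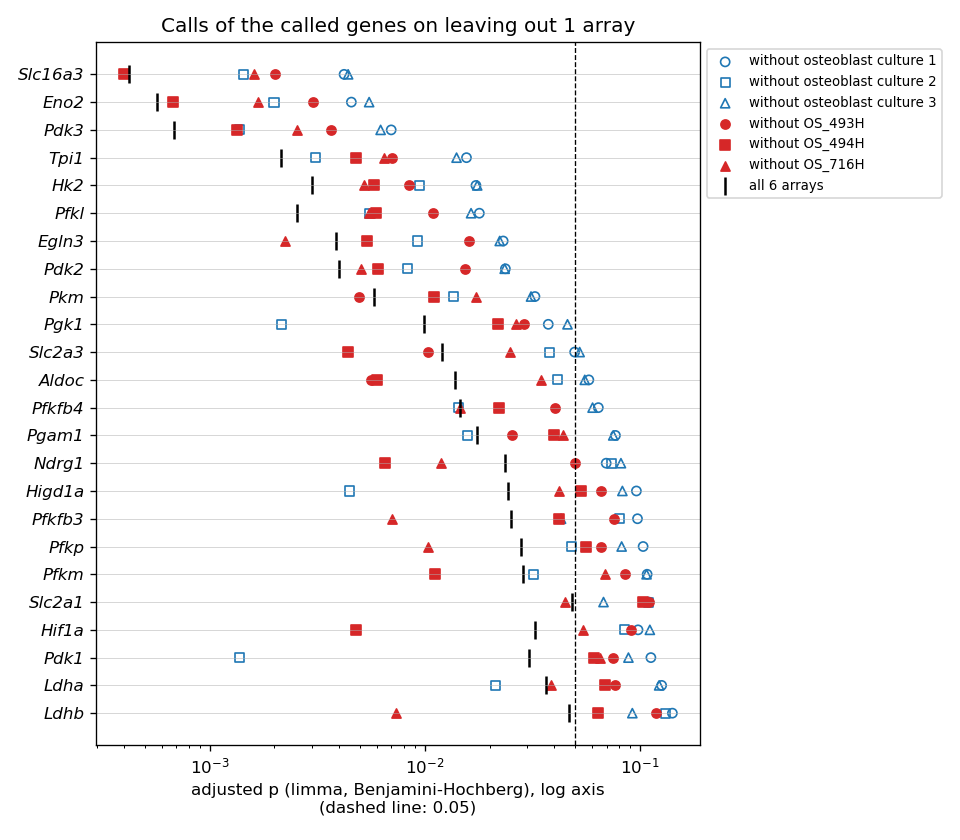
Adjusted p (limma, Benjamini-Hochberg, log axis) of each of the 24 called genes with all 6 arrays (black bar) and on leaving out each array (open blue symbols, a culture; filled red symbols, a line). The 10 genes at the top stay left of the dashed line at 0.05 whichever array is left out; for the other 14 at least 1 symbol lies to its right.

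Other genes of the same pathways were called in both directions. Of 31 measured further hypoxia-induced genes, 4 were higher and 8 lower, with a median log2 difference of -0.08, so 38.7% were called, against 24.8% of all features. The mitochondrial adenylate kinase gene Ak4 was 7.61, 8.36 and 7.82 in the cultures against 10.46, 11.11 and 10.22 in the lines, 6.36-fold higher (limma adjusted p = 0.00147). The transferrin receptor gene Tfrc rose 2.69-fold and the collagen cross-linking enzyme gene Lox 2.36-fold (adjusted p = 0.0119 and 0.00366). The naming rule took only genes that rose here, so the 3 largest falls were added after the values were seen. The vessel growth factor gene Vegfa was 11.69, 11.16 and 11.65 in the cultures against 10.27, 10.21 and 10.50 in the lines, 2.26-fold lower (0.00345). Hmox1, which encodes the haem-degrading enzyme haem oxygenase, fell 2.27-fold and the nuclear receptor gene Rora 2.04-fold (0.0108 and 0.00541), the call of Hmox1 being lost without culture 1 (0.0508). Those that fell numbered 5 without culture 1. Of 23 further glycolysis and transport genes, 5 were higher and 2 lower (median -0.02), a share of 30.4% near that of all features. Without culture 1 or 3 these counts were 3 and 1, and without OS_716H they were 3 and 2. Besides Eno3, the monocarboxylate transporter gene Slc16a7 rose by 0.92 (limma adjusted p = 8.47e-04). It was 5.87, 5.80 and 5.87 in the cultures against 6.71, 6.87 and 6.71 in the lines. All of these values lay below the median of all values on the arrays (7.53). The insulin-responsive glucose transporter gene Slc2a4 fell by 1.07 on the log2 scale (0.0101).

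Of the genes around pyruvate, the share called was near that of all features (24.8%): 22.2% for the pyruvate dehydrogenase list, 28.6% for the pentose phosphate list and 28.6% for gluconeogenesis. Of 9 genes of the pyruvate dehydrogenase complex, its phosphatases and pyruvate import, the phosphatase gene Pdp2 rose by 0.86 (limma adjusted p = 0.0235), the phosphatase regulator gene Pdpr differed by -0.71 (0.0068) and 7 did not pass. The call of Pdp2 was lost without any 1 culture or OS_493H (up to 0.0827). Of 7 pentose phosphate genes, the transketolase gene Tkt rose by 0.67 (0.0115) and H6pd, a dehydrogenase of the endoplasmic reticulum, by 0.68 (0.0232), the latter lost without any 1 array except OS_494H (up to 0.0738). Of 7 gluconeogenesis genes none rose and 2 fell. The pyruvate carboxylase gene Pcx, abundant in fat and liver, was 11.57, 10.83 and 11.29 in the cultures against 9.16, 9.89 and 9.34 in the lines, 3.4-fold lower in the lines (adjusted p = 0.00372). Pck1 fell 1.48-fold (0.0164), a call lost without culture 1, culture 2 or OS_493H (up to 0.0718). Pcx, Pck1 and Slc2a4 fell together with the adipocyte markers, among which Adipoq was 12.42, 11.50 and 11.71 in the cultures against 5.88, 6.13 and 5.79 in the lines; the part of fat-like cells in these falls was not tested.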

How the data were processed

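The deposited values are log2 expression, which the submitters' processing notes name as RMA output with mouse build mm9; the program that ran it is not given in the sources used here. It equalises the arrays and compresses large differences, and no detection calls, scanner files or batches were used here. That they are log2 was judged from their range (3.04 to 14.88). Of 35556 probe sets, 21789 have 1 gene symbol, 1621 several and 12146 are not listed in the platform annotation. For each of 21335 symbols the brightest probe set by its mean over all arrays was taken, which left 20160 distinct features. For Hk1 and Gapdh that probe set carries several symbols.

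Groups were taken from the sample titles. The 3 lines were compared with the 3 cultures with limma 3.58.1 under R 4.3.3 (linear model and moderated test, two-sided), without covariates, and Benjamini-Hochberg adjusted p under 0.05 over all features was called. Pairs were compared by an exact permutation test. The fit was tested on simulated data. The genes, the lists and the rule for naming other genes (up to 3 called genes with the largest difference per list, or 2 as values where fewer than 2 pass) were chosen with earlier results of these data known. Promoter letters came from RefSeq (GRCm38.p6). The alternatives were 18 planned and 1 added after seeing the data, the Hk1 probe set with RefSeq transcripts.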

Additional observations from a re-analysis of the deposited data

How the results depend on the processing

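No paired analysis was possible because the labels give no unit that a culture and an osteosarcoma line share. No gene of the set reversed direction with a call under any of the 19 alternatives. Of the 24 called genes, Eno2, Slc16a3, Pdk3 and Egln3 kept their call under all of them, and Hk2, Pfkl, Tpi1, Pgk1, Pkm and Pdk2 under all but the 2-fold minimum. Against 18 higher and 6 lower genes, there were 7 and 3 at an adjusted p under 0.01, 5 and 2 with at least a 2-fold change, and 7 and 3 with cultures 1 and 3 averaged as 1 sample. On leaving out 1 array the higher genes numbered 7 to 16 and the lower 3 to 6. Over all features, against 2673 higher and 2332 lower, there were 1425 and 1107 at an adjusted p under 0.01, 814 and 571 with at least a 2-fold change, and 1637 and 1356 with cultures 1 and 3 averaged; over all 35556 probe sets there were 3566 and 4150, with or without the added Hk1 probe set. On leaving out 1 array they numbered 1568 to 2840 higher and 1248 to 2384 lower. Fewer calls follow from the stricter thresholds and from fewer samples by construction, and the count over all probe sets is taken over more of them. Single genes gained a call in 7 cases (Hk1 and Gapdh on shared probe sets, Epas1 and Pdk4) and lost one in 101. Arrays give no depth, and the number of arrays limits precision.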
